A study of Drosophila melanogaster with 2 samples.

Results

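Between the loose and the strict cut-off of a reproducibility filter lay 391 promoter peaks of CG2129-eGFP, out of 47947 peaks in the authors' pooled ranked list. They are called borderline here. The filter is the global irreproducible discovery rate (IDR), an estimate for each peak of the share that would not recur between rankings among all peaks at least as reproducible as that one. A borderline peak had a −log10 IDR of at least about 1.3 and below 2, which is an IDR between 0.05 and 0.01, on one of the 6 arms X, 4 and the left and right arms of 2 and 3. Its summit also had to lie within 500 bp of an annotated transcription start site (TSS). The band held 561 peaks on these arms, and the 170 with a summit away from any TSS were not members. The members were thus selected on IDR and position, and their IDR, rank and signal are given as description only. Of the 12167 promoter peaks in the list, 1994 had a −log10 IDR of 2 or more and are called passing, and 9782 lay below that band and are called weaker.

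The study has 1 group with 2 biological replicates and no contrast between conditions. Each replicate is chromatin from whole Drosophila melanogaster embryos aged 0 to 4 h, from transgenic flies in which CG2129 is fused to enhanced green fluorescent protein (eGFP), precipitated with an antibody against GFP. The labels describe an insertion that targets CG2129 and give no promoter for the transgene. Chromatin came from all cells of the embryos, so binding in more cells and more binding per cell cannot be told apart. A control experiment, named in the labels, was not used here, so nonspecific recovery was not measured. Read depth is unknown.

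CG2129 encodes a zinc finger protein. Much of the promoter sequence vocabulary of the fly is known from genes that every cell uses. The DNA replication-related element (DRE) is the palindrome TATCGATA, bound by the factor DREF at promoters of genes for cell growth and replication. Motif 7, also called Ohler motif 7, is another core promoter element of such genes, and motif 1 is bound by the zinc finger protein M1BP. Genes for tRNAs are read by RNA polymerase III from promoters inside the gene, where the factor TFIIIC contacts an element called the B box. Divergent promoters, where neighbouring genes start back to back, are common in the compact fly genome.

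The sequences that recur in the results below are shown for a few strong members that carry them. They are read from the NCBI copy of the Release 6 genome, plus strand, and capitals mark the motif. A match of letters is a description and not a measured binding site. The first group holds the DRE, from the shared promoter of tok, a Tolloid-like metalloprotease, and from those of trc, an NDR family kinase, CG4364, CG15536 and a long non-coding RNA. In the order printed they lie at chr2L:9711371-9711451, chr3R:24719584-24719664, chr2L:4811967-4812047, chr3L:19834312-19834392 and chr3R:30425180-30425260.
CG4364: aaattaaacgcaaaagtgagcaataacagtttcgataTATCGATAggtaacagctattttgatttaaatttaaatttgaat
tok/CG13630: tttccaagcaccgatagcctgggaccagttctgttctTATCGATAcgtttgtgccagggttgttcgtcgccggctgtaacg
lncRNA:CR45297: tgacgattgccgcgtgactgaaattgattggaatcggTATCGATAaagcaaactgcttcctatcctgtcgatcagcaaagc
trc/CG32221: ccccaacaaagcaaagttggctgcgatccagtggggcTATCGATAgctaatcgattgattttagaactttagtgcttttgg
CG15536: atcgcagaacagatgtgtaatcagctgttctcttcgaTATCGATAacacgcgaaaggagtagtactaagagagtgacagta

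The motif 7 core is shown at Dim1, which encodes a protein of the U5 snRNP, at dop, a kinase needed when the embryo's cells form, and at CG11076. These lie at chr2L:4403254-4403283, chr3L:15565999-15566028 and chr4:1030971-1031000, in annotated untranslated sequence.
Dim1: cattgttagtaCATCACTAttttgtgagac
dop: gcatcaggggtCATCGCTAgtaatgtgacc
CG11076: ctattagatttTAGCGATGggtaggaagga

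The B box is shown at members that lie at tRNA genes, at chr3R:8140946-8141026, chr3L:22843290-22843370, chr2L:7872863-7872943 and chr3R:30248592-30248672. In the sequences of the Arg and the TAG Leu gene the capitals are the reverse complement of the motif.
tRNA:Arg-ACG-1-10: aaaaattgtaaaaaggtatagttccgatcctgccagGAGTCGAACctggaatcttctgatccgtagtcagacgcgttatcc
tRNA:Leu-CAG-1-8: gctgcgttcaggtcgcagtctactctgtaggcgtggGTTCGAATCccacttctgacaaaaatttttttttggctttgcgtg
tRNA:Gly-GCC-1-3: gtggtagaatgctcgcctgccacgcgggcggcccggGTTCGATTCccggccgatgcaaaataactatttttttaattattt
tRNA:Leu-TAG-1-2: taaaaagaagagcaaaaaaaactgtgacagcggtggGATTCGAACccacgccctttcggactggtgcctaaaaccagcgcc

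Borderline promoters carried the DRE more often than weaker promoter peaks and less often than passing ones. TATCGATA lay within 100 bp of the summit in 46 of 391 members (11.8%, 95% exact interval 8.74 to 15.4). The share was 32.5% of passing peaks (log2 odds ratio -1.84, adjusted p = 6.89e-18, Fisher's exact test, two-sided) and 2.41% of weaker ones (2.44, adjusted p = 1.65e-16). Windows of the same length around all annotated TSSs held it in 5.45%. The 7-base core TATCGAT, which overlaps the full element, followed the same order: 88 members (22.5%), 56.1% of passing peaks (-2.13, adjusted p = 5.58e-34) and 5.68% of weaker ones (2.27, adjusted p = 5.44e-26, Fisher's exact test), against 11.0% of all TSS windows. P-values were adjusted over 10 motifs and both comparisons, and they describe peaks of 1 pooled list, since peaks are not independent replicates and neighbouring summits can share sequence.

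The motif 7 core (CAGCNCTA, CAGCNCTG, CATCNCTA or CATCNCTG, either strand) took a middle place too, between passing and weaker peaks each taken as a whole. It was present in 69 members (17.6%, interval 13.998 to 21.8), against 33.9% of passing (log2 odds ratio -1.25, adjusted p = 2.23e-10) and 9.27% of weaker peaks (1.08, adjusted p = 1.45e-06, Fisher's exact test), and in 12.6% of all TSS windows. In classes of −log10 IDR near the band it was in 16.9% from 0.6 to 1, 11.7% from 1 to 1.3 and 22.9% from 2 to 2.5 (not tested). The M1BP core GGTCACACT was found in 12 members (3.07%), which did not pass the test against passing peaks (5.52%, adjusted p = 0.0809) or weaker ones (2.28%, adjusted p = 0.399, Fisher's exact tests). Against weaker peaks it did pass, with a higher share, in the other pooled list (log2 odds ratio 1.17, adjusted p = 0.00705) and in the own lists of replicates 1 and 2 (1.07 and 1.12, adjusted p = 0.0132 and 0.0173, Fisher's exact tests). Here and below, the band is drawn anew in those 3 lists, with 410, 401 and 414 borderline promoter peaks. Of the 391 members only 93, 72 and 38 match a peak in the band there, so those tests concern largely different peaks. In all, 248 members (63.4%) had none of the DRE core, motif 7 and M1BP letters in this window, against 29.2% of passing and 84.3% of weaker peaks. No match says only that these letters are not in this window.

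The other motifs are core promoter elements and sites of early embryo factors. The TATA box letters TATAAA were in 85 members (21.7%) and in more passing peaks (29.4%, adjusted p = 0.00425, Fisher's exact test), with 18.6% of weaker peaks (adjusted p = 0.197; past the threshold in both replicates' own lists, adjusted p = 0.00120 and 0.0173) and 26.2% of all TSS windows. The GAGA motif GAGAGAG, which is bound by the GAGA factor, was in 27 members (6.91%) against 2.61% of passing peaks (log2 odds ratio 1.48, adjusted p = 0.000215) and 5.72% of weaker ones (adjusted p = 0.399, Fisher's exact tests). The 3 strongest members with GAGAGAG lay at D, a Sox family regulator of segmentation, at ham and at Ndae1. The TATA difference was no longer past the threshold in either replicate's own list or with a lower bound of 1.6, and the GAGA difference not in the list of replicate 2 or within 50 bp of the summit. Among the 350 passing peaks nearest the band, from 2 to 2.5, GAGA was in 6.29% and TATA in 25.1%. Members below and above 1.6 had GAGA in 6.36% and 7.34%, and TATA in 17.9% and 24.8%. These classes were chosen after the values were seen and were not tested. The initiator letters TCAGTC or TCAGTT (72 members), the Zelda site CAGGTAG (3 members) and the E-box CAGCTG (62 members) did not pass in either comparison. In replicate 1's own list, however, the E-box share was above that of passing (log2 odds ratio 0.68, adjusted p = 0.00216) and of weaker peaks (0.90, adjusted p = 7.81e-06), and in the other pooled list the initiator share was below that of weaker peaks (-0.51, adjusted p = 0.0190, Fisher's exact tests).

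**Figure D1:**
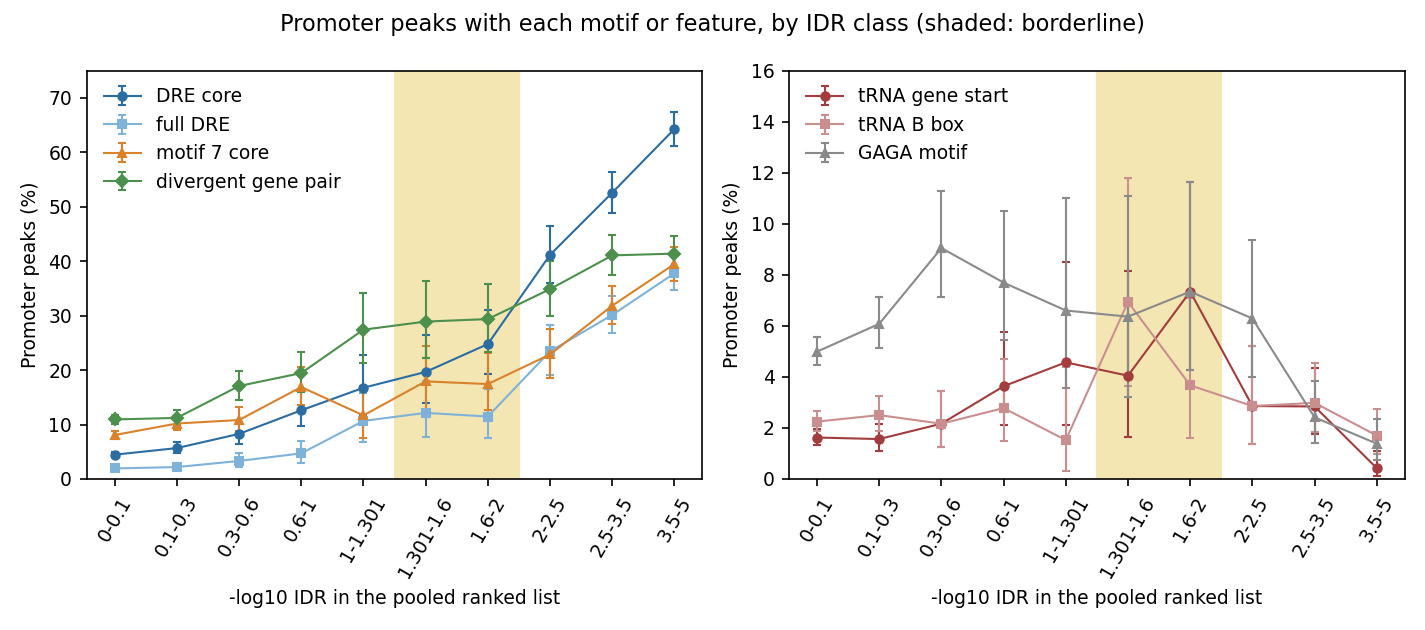
Share of promoter peaks (vertical axis, %) with each motif or feature by class of −log10 IDR (horizontal axis), with 95% exact intervals as bars; the shaded classes are the borderline peaks. The DRE core runs from 4.46% in the lowest class to 64.3% in the highest, and tRNA gene starts have their highest share, 7.34%, in the class from 1.6 to 2.

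Along the list the share of peaks with the DRE core increased from class to class of −log10 IDR, with classes chosen after the values were seen. It was 16.8% between 1 and 1.3, 19.7% of the 173 members up to 1.6, 24.8% of the 218 members above that, and 41.1% between 2 and 2.5. The intervals of the neighbouring classes up to 2 overlap, as the plot by IDR class shows. The GC content of the windows moved with the classes, with medians of 41.8% in members, 37.6% in passing and 45.3% in weaker peaks. Strata of GC content were also set after the values were seen. Within windows under 38% GC the full DRE was in 20.2% of members, 36.7% of passing and 5.87% of weaker peaks. At 46% GC and above the shares were 3.497%, 18.3% and 0.534%, so the order of the classes was the same in both strata. Where members had the DRE, its median distance from the summit was 32.5 bp, and 12 of 46 (26.1%) had it within 25 bp, against 43.6% in passing and 36.4% in weaker peaks (not tested).

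The layout of genes around the summits differed between the classes as well. A divergent pair of protein-coding TSSs lay within 500 bp of the summit in 114 members (29.2%, interval 24.7 to 33.9), against 40.1% of passing peaks (log2 odds ratio -0.70, adjusted p = 6.09e-05) and 12.2% of weaker ones (1.57, adjusted p = 2.13e-17, Fisher's exact test). Near the bounds the share changed little: 27.4% (54 of 197) between 1 and 1.3, 28.9% and 29.4% in the lower and upper part of the band, and 34.9% from 2 to 2.5. The intervals of these classes overlap, and they were not tested. The difference from passing peaks was not past the threshold in the list of replicate 1 alone (-0.19, adjusted p = 0.305, Fisher's exact test). Member summits sat a median of 83 bp from the nearest TSS, passing ones 58.5 bp and weaker ones 168 bp. They lay upstream of it in 205 members (52.4%), 72.1% of passing and 42.1% of weaker peaks. The X chromosome held 48 members (12.3%), fewer than its share of passing peaks (20.2%, log2 odds ratio -0.84, adjusted p = 0.000208) and of weaker ones (16.3%, -0.47, adjusted p = 0.0353, Fisher's exact test). That result depended on the list and, against weaker peaks, on the settings. The difference from weaker peaks passed within 200 bp of a TSS (log2 odds ratio -0.47). It did not within 1000 bp (-0.20), with a lower bound of 1.6 (-0.33) or without summits near a passing (-0.41) or a stronger one (-0.40). In the other pooled list neither difference passed (-0.19 against passing peaks). X held 17.5% of peaks below 0.1, 15.1% up to 0.3 and 13.1% to 13.5% in the classes from there to 1.3 (not tested). In the list of replicate 2 the X share was above that of weaker peaks (0.61, adjusted p = 0.00168, Fisher's exact test), and in the list of replicate 1 it passed in neither comparison. The right arm of chromosome 2 held the most members, 106 (27.1%), against 20.5% of passing peaks (not tested).

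Genes for tRNAs had a higher share among members than in the passing or the weaker peaks of the pooled list as a whole. A tRNA gene start lay within 500 bp of 23 member summits (5.88%, interval 3.77 to 8.70), against 1.71% of passing peaks (log2 odds ratio 1.86, adjusted p = 2.16e-05) and 1.81% of weaker ones (1.79, adjusted p = 7.36e-06, Fisher's exact test). The share did not begin or end sharply at the bounds. Below the band it was 3.63% (17 of 468) from 0.6 to 1 and 4.57% (9 of 197) between 1 and 1.3. In the lower and upper part of the band it was 4.05% (7 of 173) and 7.34% (16 of 218). Above the band it was 2.86% (10 of 350) from 2 to 2.5, 2.84% (20 of 704) from 2.5 to 3.5 and 0.426% (4 of 940) beyond 3.5. The intervals of the classes from 0.6 to 2.5 all overlap. The B box GTTCGANNC gave the same picture, with 20 members (5.12%) against 2.36% (adjusted p = 0.0128) and 2.31% (adjusted p = 0.00425, Fisher's exact tests), but 13 of these 20 members are themselves tRNA members. Neither difference was past the threshold in the lists made from 1 replicate, and the B box differences were also lost in the other pooled list (adjusted p = 0.149 and 0.0840) and with a lower bound of 1.6 (adjusted p = 0.413 and 0.347, Fisher's exact tests). For tRNA starts the log2 odds ratios there were 1.03 and 1.14 against passing peaks (adjusted p = 0.0987 and 0.0920) and 0.89 and 0.37 against weaker ones (adjusted p = 0.0987 and 0.470, Fisher's exact tests) in replicates 1 and 2.

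None of the 23 tRNA members had the DRE core or motif 7. Of the 368 other members, 88 had the DRE core and 69 had motif 7 (not tested). Some of the 23 had TATA box or initiator letters, and the member at tRNA:Asn-GTT-1-3 with 1-2 had both. The pooled signal of the 23 ran from 8.20 to 43.8, with a median of 33.9. The strongest lay at tRNA:Lys-CTT-1-3 (43.8 pooled, 20.05 in replicate 1 and 19.5 in replicate 2), followed by tRNA:Asn-GTT-1-3 with 1-2 (41.1, 28.7 and 12.1) and tRNA:Pro-AGG-1-2 (39.5, 22.0 and 22.1). Next came tRNA:Asn-GTT-1-1 with 38.1 and tRNA:Gln-CTG-2-5 with 37.5. Of the 23, replicate 1's passing list held 3 and that of replicate 2 held 2. Across the genome 34 of 290 annotated tRNA genes had a member peak, 31 of them without a passing peak, and 60 had a passing peak. Genes for 1 tRNA are near-identical copies that often sit in clusters, so the reads at these peaks may be shared between copies, and how such reads were counted is unknown.

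The signals of all members lay inside the range of passing peaks, which ran from 6.02 to 510.7 with a median of 79.1. The signal is the value written by the authors' peak caller, and its scale is not stated in the files. Weaker peaks had a median of 14.01 and a highest signal of 94.2. Over the 391 members the signal ran from 6.22 to 91.7, which is below that highest value, with a median of 32.8. The strongest lay 277 bp from the TSS of row, a zinc finger gene related to woc (signal 91.7 pooled, 42.9 in replicate 1 and 33.6 in replicate 2), with a stronger summit 208 bp away. The promoter of Ntf-2r and bsf followed with 81.8 (42.9 and 38.7). Replicate 2's passing list held both of these and replicate 1's held neither. CG4364 had 81.5 (51.5 and 31.9), and Dim1 had 69.2 (43.0 and 30.2). Both carry an element printed above, and of the pair only CG4364 was in a passing list, that of replicate 1.

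The next members by signal included housekeeping and developmental genes. Usp10, a ubiquitin-specific protease, had 65.2 (54.2 and 46.1). The promoter of Prosalpha3, a subunit of the proteasome core, and dgt3, a subunit of augmin, had 62.7 (35.3 and 29.6). The promoter of tok and CG13630 had 62.1, with 48.0 in replicate 1 and 13.2 in replicate 2. Of the others in the top 10, lncRNA:CR45297 had 61.8 (39.8 and 24.04), trc with CG32221 had 60.8 (37.1 and 22.3), and dop had 59.2 (25.8 and 30.3). All of these had a peak in both replicates' ranked lists, and each replicate's signal is on its own scale.

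At the level of genes, borderline peaks were spread thinly over the lists examined. Of 13945 protein-coding genes, 446 (3.2%) had a member at a TSS and 381 of these had no passing peak, while 2463 (17.7%) had a passing peak. Cytoplasmic ribosomal protein genes had 3 of 92 with a member (RpLP2 with signal 46.6, RpL31 with 34.5 and RpL17 with 34.03) and 40 with a passing peak. RpL17 shares its peak with tRNA:Phe-GAA-1-2. Mitochondrial ribosomal protein genes had 2 of 73 (mRpL49 and mRpS31) and 26 passing. The proteasome had 4 of 48 (Prosalpha3, Rpn3, Prosalpha5 and Prosbeta3) and 20 passing. Oxidative phosphorylation had 4 of 90 and 23 passing, led by ATPsyngamma, a subunit of the mitochondrial ATP synthase, with signal 47.4 (34.6 in replicate 1 and 18.5 in replicate 2); the others were ND-B15, COX7AL2 and SdhD.

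Genes of the cell cycle list had 2 of 39 with a member and 18 with a passing peak. These were Orc2, a subunit of the origin recognition complex (44.4 pooled, 28.1 in replicate 1 and 14.6 in replicate 2), and mad2 of the spindle checkpoint (32.4, 29.1 and 4.83), and both carry the full DRE. Other members of the lists were the aminoacyl-tRNA synthetase genes PheRS-m and IleRS (2 of 33, 9 passing), eIF5 and eIF2D of translation initiation (2 of 44, 15 passing), Nup214 of the nuclear pore (1 of 21, 9 passing), the chaperonin genes CCT6 and CCT2 (2 of 34, 10 passing) and nbs of DNA repair (1 of 20, 7 passing). The synthetase list leaves out alpha-PheRS, which also has a member, described with CG2129 below. The insulator factors Ibf1 and Ibf2 share 1 member (signal 26.7) that carries the full DRE. The lists of splicing (34 genes, 21 passing), vesicle trafficking (77 genes, 37 passing), replication and DREF targets (12 genes, 10 passing) and pioneer factors (6 genes, 1 passing) had 0 members. The lists do not hold every gene of their class, so these counts concern the listed genes only. Dim1, which encodes an snRNP protein, has a member but is outside the splicing list.

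Patterning genes, which act in a part of the embryo, had a few members and hardly any passing peak. Segmentation genes had 2 of 27 with a member and 0 passing. D had 47.8 pooled, 26.0 in replicate 1 and 14.5 in replicate 2. The other, ken, a zinc finger repressor, had 30.5, 17.2 and 9.62 and carries the full DRE. The Hox gene Dfd, which specifies head segments, was the 1 member among 12 Hox genes (0 passing), with 32.9 pooled, 13.1 in replicate 1 and 22.6 in replicate 2. Among 22 dorsoventral genes, cact, the inhibitor of the Dorsal factor, was the 1 member (38.8, 16.7 and 17.5), and 2 had a passing peak. With 1 or 2 genes a list, these counts were not tested and say nothing particular to a list.

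Not every member was a summit of its own. A stronger summit of the same list lay within 500 bp of 90 members (23.0%), against 13.3% of passing and 26.0% of weaker peaks, and for 34 members a passing summit was that close. Among the members themselves 39 pairs of summits lay within 500 bp, at 199 to 313 bp (median 207 bp). In 38 of these pairs the values of −log10 IDR were within 0.01 of each other, while the median signals were 32.3 for the stronger and 12.1 for the weaker summit. The limit of 0.01 was chosen after the values were seen. Of the 46 members with a signal under 15, also a limit chosen afterwards, 44 had a stronger summit within 500 bp, 0 had TATCGATA and 1 had its core. The 5 weakest members, at hpRNA:CR32207 (6.22), CG17377 (6.61), esg (6.96), Cpr (6.99) and mRpS31 (7.10), all had a stronger summit 199 to 207 bp away. Without peaks that have such a neighbour, 301 members were left, and the differences in the DRE, motif 7, divergent pairs and tRNA starts kept their calls.

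**Figure D2:**
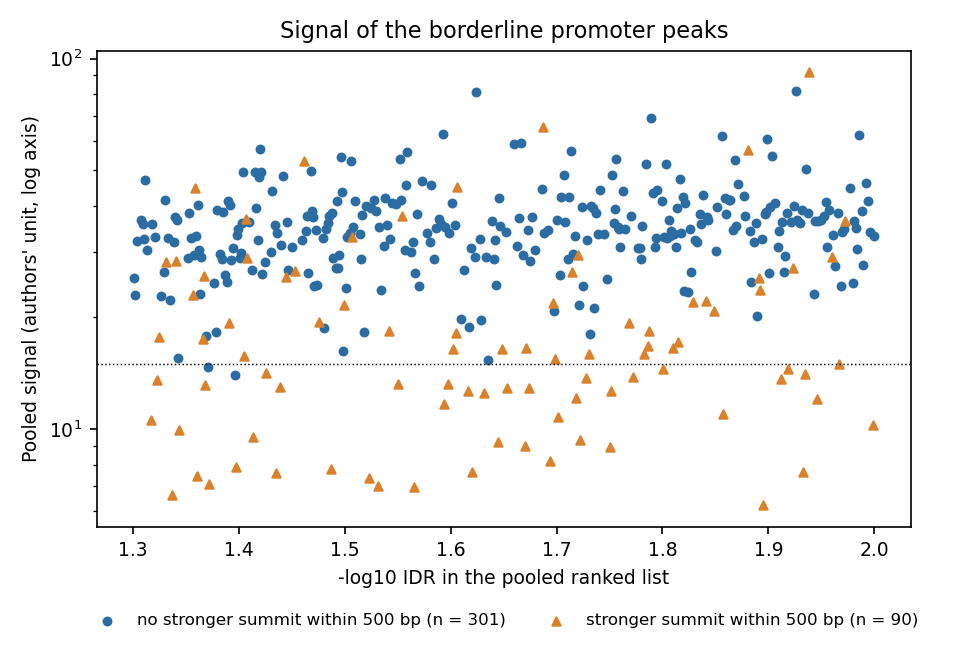
Pooled signal (vertical axis, log scale, the authors' unit) of each of the 391 members against its −log10 IDR (horizontal axis); triangles are the 90 members with a stronger summit within 500 bp, and the dotted line is a signal of 15. Nearly all of the 46 members under the line are triangles, at any IDR in the band.

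The pair with differing values lay at the gene of the tagged protein. CG2129 and alpha-PheRS, a subunit of the cytoplasmic phenylalanyl-tRNA synthetase, start back to back on the X chromosome, and both summits (8145626 and 8145825, dm6) are members. The first had a signal of 41.4 with a −log10 IDR of 1.53 and also matches the B box letters; the second had 28.3 and 1.34. Both matched the same peak of replicate 1 (signal 30.4), and the first also a peak of replicate 2 (20.3). Neither was in a replicate's passing list. The labels place the transgene as an insertion targeting CG2129, and its part in the signal there was not tested.

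The passing lists of the single replicates held some of the members. A match needed an overlap of at least 50% of either peak's length, and the strongest such peak was taken. One peak of a replicate can thus match more than 1 member, and a member can match the peak of a stronger neighbour. Both member summits at esg, for example, match 1 peak of replicate 1 (signal 28.4). Replicate 1's passing list held 46 members (11.8%, interval 8.74 to 15.4; 14.7% of all promoter peaks) and that of replicate 2 held 18 (4.60%, interval 2.75 to 7.18; 12.1% of all promoter peaks). With summits within 100 bp required instead, the shares of members were 8.18% and 3.58%. The reads of the replicates are part of the pooled reads by which members were chosen, so nothing is read from these shares. In neither list were 330 members (84.4%), against 16.1% of passing and 96.4% of weaker peaks. In both were 3 (0.767%), against 53.7% of passing and 1.00% of weaker peaks. These 3 were CG4853 (52.999 pooled, 32.9 in replicate 1 and 53.007 in replicate 2), Usp10 and subdued, a channel of the anoctamin family (42.4, 24.2 and 24.2). At both CG4853 and Usp10 a stronger summit lay within 500 bp.

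Most members had a match in the replicates' ranked lists, which are long. Replicate 1's ranked list matched 361 members (92.3%) and that of replicate 2 matched 335 (85.7%). Passing peaks were matched in 97.7% and 96.2% and weaker promoter peaks in 61.5% and 57.5%. The replicates' reads are part of the pooled reads here too, so nothing is read from these shares. The median signal of the matched peaks was 21.2 in replicate 1 and 15.8 in replicate 2, against 49.9 and 37.1 for passing peaks. Both lists matched 311 members and neither matched 6. Those 6 lay at tRNA:Val-TAC-1-1 with 1-2 (pooled signal 19.3), chn (16.2), CG3634 with HIPP1 (14.5), MED16 with CG11170 (7.89), CG15916 with MSBP (7.67) and mRpS31 (7.10).

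**Figure D3:**
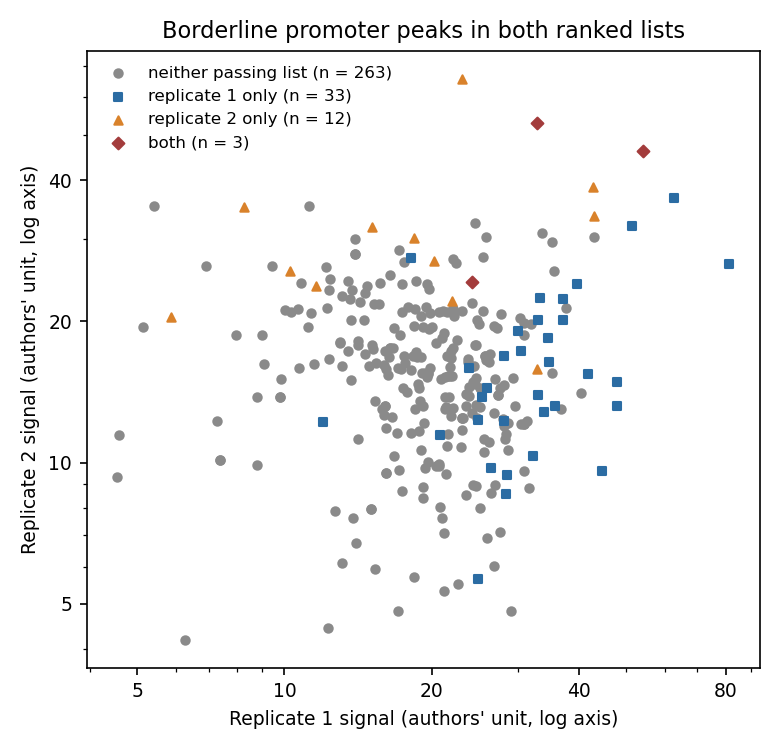
Signal of the strongest peak matched to each of the 311 members found in both ranked lists, in replicate 1 (horizontal axis) and replicate 2 (vertical axis). Both axes are log scales in the authors' unit. The marker gives the replicate's passing list that held the member. Most members are in neither passing list, and the 3 diamonds are in both.

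The peaks matched to the members in the second pooled ranked list often had other values. The match was again the strongest overlapping peak, so a member can carry the value of a stronger neighbour. CG9175, for example, has a signal of 29.1 and a stronger summit 203 bp away, and its match there has a −log10 IDR of 5. Of the 391 members, 77 had a −log10 IDR of 2 or more there, 93 were in the band, 219 lay below it and 2 had no match. The DRE core was in 24 of the 77 (31.2%), 26 of the 93 (28.0%) and 38 of the 219 (17.4%), a split made after the values were seen and not tested. The conservative list of the authors held 75 members (19.2%), against 84.5% of passing and 3.11% of weaker peaks. Of these 75, 23 had a stronger summit within 500 bp. How the making of the pooled lists differed is unknown from the labels and readme text.

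**Figure D4:**
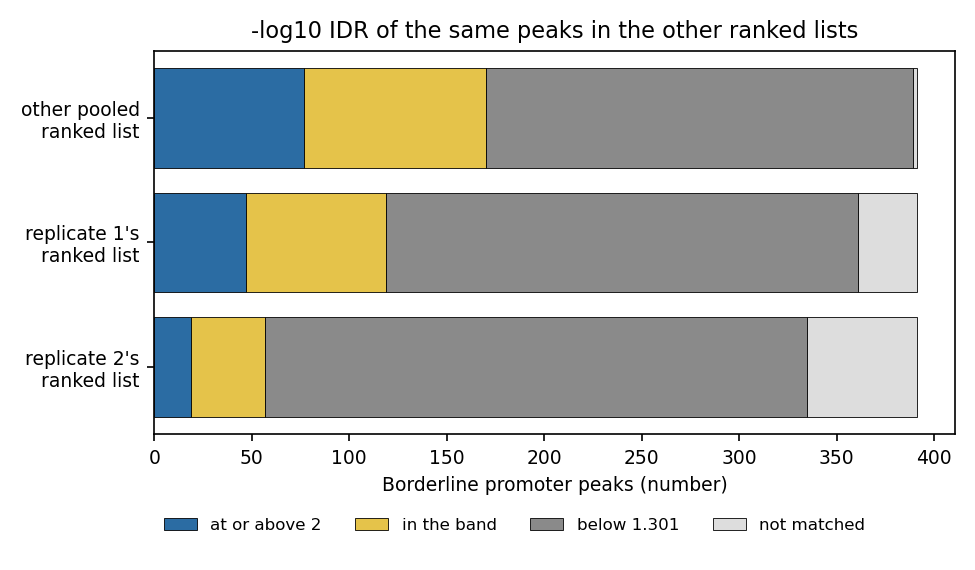
Number of members (horizontal axis) by the −log10 IDR of the strongest overlapping peak in the other pooled ranked list and in each replicate's ranked list. Colours give the class there. In the other pooled list 77 members are at or above 2 and 219 are below the band.

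The members nearest to the bounds are given as a description of the limits. Just below 2 stood the summits at mRNA-cap, the capping enzyme (−log10 IDR 1.99975, signal 33.2), at mRNA-cap with CG32599 (1.9983, signal 10.2) and at tRNA:Phe-GAA-1-2 with RpL17 (1.9954, signal 34.03). Just above were mRpL20 with Icmt (2.00121, signal 54.2), PIG-K (2.00267, signal 44.6) and Golgin97 with cnn (2.00411, signal 44.4). Just inside the lower bound were Pgm1 (1.30113, signal 25.5), pico (1.30212, signal 23.0) and Prosalpha5 (1.30408, signal 32.2). Just outside it were ocm (1.30015, signal 25.8), Mst85C with Nmdmc and Rel (1.29918, signal 39.6) and CG6028 (1.2982, signal 38.8). Over the whole neighbouring classes the median signal was 27.4 for the 197 peaks between 1 and the lower bound and 31.97 for the 173 members up to 1.6.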

How the data were processed

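Chromatin immunoprecipitation with sequencing was done on 2 biological replicates of 1 group. Per the labels' protocols, chromatin was sonicated to 200 to 800 bp. The deposited files are peak lists on dm6, per the labels, with a signal value per peak written by the authors' caller and, in the ranked lists, the deposited −log10 of the IDR. No aligner or peak caller is given in the sources used here. The ranked list used is the pooled one that holds every row of the pooled thresholded list at or above 2. In the 4 ranked lists, 8 columns each (32 in all) hold values per sample that no label ties to a sample, and they were left out.

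TSSs came from Ensembl release 115 (BDGP 6.54; 23998 TSSs at 23581 positions on the arms, transposable elements left out), and no peak ran past an arm's end. Motifs were searched on both strands within 100 bp of the summit. Shares were compared by two-sided Fisher's exact tests (SciPy 1.17.1, Python 3.11.15), adjusted by the Benjamini-Hochberg method over 10 motifs or 3 features and both comparisons, threshold 0.05. Log2 odds ratios add 0.5 to each cell. Intervals on shares are Clopper-Pearson (95%, exact) and reflect counting error alone. The tests were checked on simulated peaks drawn independently, with changed shares set near those of the DRE. That check does not cover neighbouring summits that share sequence, or smaller differences. Members were named by signal rank, distance to the bounds, motifs, tRNA starts, gene lists and presence in the replicates' lists; ash1 and the other genes of the closing observations, and those of the CG2129 site, were named after their values were seen. The members, the 18 gene lists and the tests were chosen with earlier results of these data known. Alternatives varied the TSS distance, list, replicate, band, window and matching rule. In another ranked list the band was drawn anew on that list's own IDR. A replicate's signal at a member is that of the strongest peak matched to it, which can belong to a neighbouring summit. Coordinates count from 1.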

Additional observations from a re-analysis of the deposited data

How the results depend on the processing

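TATCGATA, its core, the motif 7 core and divergent pairs against weaker peaks kept their direction and their side of the threshold under every alternative run. Without replicate 2 or without replicate 1 (the other replicate's own list) the log2 odds ratio of tRNA starts was 1.03 to 1.14 against passing and 0.37 to 0.89 against weaker peaks, none past the threshold, and that of divergent pairs against passing peaks -0.59 to -0.19. The number of features past the threshold was then 0 to 1 against passing and 1 to 2 against weaker peaks, from 3 in each, and of motifs 3 to 5 against passing peaks, from 6, and 5 to 6 against weaker peaks, from 4. M1BP and TATA against weaker peaks then passed in both lists, and also in a 200 bp window (0.95 and 0.40); within 1000 bp of a TSS M1BP against passing (-0.99) and TATA (0.39) and GAGA (0.65) against weaker peaks passed. The X share ran from -0.13 to 0.27 against passing and from 0.23 to 0.61 against weaker peaks in these lists, and was 0.18 against weaker peaks in the other pooled list. In the same lists Zelda against weaker peaks ran from -0.016 to 0.077, the initiator against passing peaks from -0.029 to 0.040 and GAGA against weaker peaks from -0.53 to 0.21. The causes were not tested. Differences that had not passed also changed sign: M1BP against weaker peaks within 200 bp of a TSS (-0.0051), the initiator against weaker peaks within 1000 bp (0.063) or in a 200 bp window (0.014) and against passing peaks in the other pooled list (-0.19) or a 50 bp window (-0.057), Zelda against passing peaks in the other pooled list (-0.17), GAGA against weaker peaks in a 50 bp window (-0.16) and the E-box against passing peaks in a 200 bp window (-0.074). With any overlap counted, the ranked lists of replicates 1 and 2 matched 96.9% and 93.1% of members; with summits within 100 bp, 80.8% and 71.4%, and replicate 1's passing list 8.18%. Leaving out peaks with a stronger summit nearby was added after seeing the data. No paired analysis was possible because there is 1 group. Unknown read depth limits any statement on how firmly a low peak was measured.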

Other observations

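Genes named here were picked from the member list after their values were seen, outside the lists counted above, and were not tested. Chromatin regulators with a member at the TSS included mof, the histone acetyltransferase of dosage compensation (signal 36.4 pooled, 16.4 in replicate 1 and 25.1 in replicate 2), Tip60, another histone acetyltransferase (36.5, 24.9 and 12.3), the Polycomb group gene Psc (33.8, 17.3 and 15.8), and Sin3A, a corepressor subunit (40.3, 31.6 and 8.83). The promoter shared by ash1, a histone methyltransferase, and Taf6, a TFIID subunit, had 52.9 (27.3 and 19.3). Of these 5 peaks replicate 1's passing list held the one at Tip60 and replicate 2's held none. The list of replication and DREF targets had 0 of 12 genes with a member, but some replication genes outside it had one. Psf3 (38.3, 26.9 and 15.1) and Sld5 (34.6, 17.0 and 11.6) encode subunits of the GINS complex of the replicative helicase. Rif1, which sets replication timing, had 53.4 (22.1 and 27.2), and Cdc45, another part of the helicase, had 21.5 (15.05 and 7.96). One member lay at the U6 spliceosomal RNA genes snRNA:U6:96Ab and snRNA:U6:96Ac, which RNA polymerase III also reads (30.9, 24.7 and 15.1), and these are near-identical copies.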
